A study of Mus musculus with 8 samples.

Results

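The 37 interferon-stimulated genes described here were taken by name from a list of interferon response genes that left out chemokines and the MHC class I pathway, and all 37 were found among the 27179 gene identifiers counted. They encode transcription factors of the response, the ISG15 modifier and its protease, sensors of foreign RNA and DNA, and antiviral effectors. RNA was sequenced from thymic epithelial cells of C57BL/6 mice, the stromal cells of the thymus on which T cells are selected. The study compared Mcl1 knockout (KO) and wild-type (WT) cells of the cortex (cTEC) and of the medulla (mTEC), Mcl1 being a BCL-2 family gene that protects cells from apoptosis. There was 1 KO cTEC library beside 4 WT cTEC libraries, and 1 KO mTEC library beside 2 WT mTEC libraries. The labels give neither the age of the mice, nor the promoter or deleted part behind the knockout, nor whether libraries of a group came from separate animals. The p-values therefore measure the spread between libraries, which may be technical.

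Interferons are secreted proteins that bind receptors on the cell surface, which act through Janus kinases to phosphorylate the STAT transcription factors. Type I and type III interferons (alpha, beta and lambda) act through a complex with STAT2 and IRF9 that binds the interferon-stimulated response element (ISRE), whereas type II interferon (gamma) acts through factors that bind the gamma-activated sequence (GAS). In the thymus, medullary epithelial cells are known to express interferon genes without infection.

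The promoter sequence of the members is shown first, because the ISRE is what interferon-stimulated genes are known to have in common and the list did not use it. Promoter windows of 300 bases (250 before to 50 after the start site of the window), build GRCm38.p6, were at hand for 28 of the 37 members. This start site was not always the outer end of the RefSeq gene. For Ifit3 it lay inside the gene, as did the whole stretch printed below. It also lay inside the gene for Irf7, Oasl1, Xaf1, Cmpk2 and Ifit2. The same held for Oas3, Oas1a, Ddx60, Gbp3 and Oasl2, and for a further window of Irf1, Irf8, Irf9 and Trim30a. The printed stretches of Ddx60 and Oas1a lay partly inside the gene. The first 30 bases after the start site were found in annotated member transcripts for 25 of 34 windows. The ISRE core was searched as GAAANNGAAA and its reverse complement TTTCNNTTTC, and was present for 17 of 28 members (60.7%), against 3.99% of 27025 genes with a window. The GAS was searched as TTCNNNGAA on both strands, and was present for 8 members (28.6%), against 9.55% of all genes. The stretches around the cores of 10 members follow, 5′ to 3′ on the strand of the gene, with the cores in capitals. Isg15, Bst2, Irgm1 and Oas1a had overlapping cores in tandem, as did Gbp3, which is not printed.
Isg15, chr4:156200860-156200911, minus strand: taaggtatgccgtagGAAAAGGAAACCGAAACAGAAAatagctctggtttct
Bst2, chr8:71537572-71537617, minus strand: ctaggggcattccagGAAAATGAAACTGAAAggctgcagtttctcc
Irgm1, chr11:48871421-48871465, minus strand: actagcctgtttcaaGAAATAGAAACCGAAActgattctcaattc
Oas1a, chr5:120907526-120907560, minus strand: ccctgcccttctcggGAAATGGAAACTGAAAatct
Oas3, chr5:120777710-120777749, minus strand: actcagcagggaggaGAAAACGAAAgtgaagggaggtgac
Ddx60, chr8:61928019-61928086, plus strand: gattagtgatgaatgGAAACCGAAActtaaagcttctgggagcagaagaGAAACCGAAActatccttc
Ifit1, chr19:34640770-34640828, plus strand: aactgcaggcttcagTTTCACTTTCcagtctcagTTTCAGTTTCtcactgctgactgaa
Ifit3, chr19:34583358-34583431, plus strand: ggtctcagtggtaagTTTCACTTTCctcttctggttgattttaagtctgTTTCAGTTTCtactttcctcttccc
Gbp2, chr3:142620589-142620628, plus strand: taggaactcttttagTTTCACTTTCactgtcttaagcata
Stat2, chr10:128270261-128270300, plus strand: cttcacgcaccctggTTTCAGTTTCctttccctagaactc
The first core of Isg15 began 78 bases before the start site of its window, that of Oas3 75 bases and that of Irgm1 30 bases. A match is a description of the letters, not evidence that a factor binds. No core was in the windows of Irf7, Oasl1 or Oasl2, and the windows of Zbp1, Oas2, Mx1, Mx2, Usp18, Dhx58, Rtp4, Parp14 and Iigp1 are not shown.

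The KO mTEC library had the fewest counts, 11516780, and WT mTEC 1 the most, 19171953, and no member had a count of 0 in any library. Levels below are CPM, counts scaled to library size after trimmed-mean (TMM) normalization. Mcl1, the targeted gene, had 8.23 CPM in KO cTECs against 228 to 302 CPM in WT cTECs, and 78.7 CPM in KO mTECs against 113 and 203 CPM in WT mTECs. It thus kept 3.19% of its WT mean in the KO cTEC library and 49.8% in the KO mTEC library, where it was not called lower (adjusted p = 0.538). In KO cTECs 3 of the 10 markers of cTECs passed as higher and none as lower, and 9 were lower in WT mTECs than in WT cTECs. The KO cTEC library stood apart from WT cTECs in transcripts of other cells. All 6 tuft cell markers were lower in it, with a summed level of 38.2 CPM against 915 to 1539.8 CPM in WT cTECs and with Trpm5, Gnat3 and Rgs13 at 0 counts. Of 8 mature mTEC markers 6 were lower (68.0 CPM summed, against 583 to 852 CPM), with Aire at 0 counts. Of 5 immature mTEC markers 2 were lower (2250.1 CPM summed, against 2915 to 3921 CPM), Ccl21a having 24 counts against 9094 to 17754 counts in WT cTECs. Of 12 dendritic cell and macrophage markers 9 were tested and 4 were lower: Lyz2, at 9.25 CPM against 121 to 223 CPM in WT cTECs, Zbtb46, Csf1r and Adgre1. The sum of the 12 was 97.9 against 199 to 323 CPM, and most of it was Sirpa in the KO library (81.4 CPM, against 30.6 to 49.3 CPM in WT cTECs) and Lyz2 in WT. Flt3, Xcr1, Clec9a and Adgre1 were at 0 counts, but the first 3 were also at 0 in at least 1 WT cTEC library. Of 5 B cell markers 4 were tested and 1, Cd79b, was lower (0.643 against 10.6 to 27.9 CPM summed), and Ms4a1 and Pax5 were at 0 counts in the KO library and in 1 and 3 of the WT cTEC libraries. Of 7 thymocyte markers 1 was lower. Higher in the KO cTEC library were 2 of 4 epithelial markers (8115 CPM summed, against 4392 to 5123 CPM) and 2 of 5 fibroblast markers (1009 CPM summed, against 707 to 904 CPM), among them Col1a1 with 1269 counts against 83 to 290 counts. In KO mTECs the summed level of 5 fibroblast markers was 1043 CPM, against 159.7 and 125 CPM in WT mTECs.

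In KO cTECs a large share of the interferon-stimulated genes fell and none rose. Of 37 members 17 (45.9%) passed the threshold as lower and 0 as higher, where the threshold was a Benjamini-Hochberg adjusted p under 0.05 in the edgeR quasi-likelihood test over 18163 genes. Over all these genes 12.4% were called lower and 5.1% higher. The median log2 fold change of the members was -1.02, against -0.14 over all genes tested. Of the 37 members 36 were below 0, as were 55.9% of all genes. All members together made up 4170 CPM in KO cTECs, against 6986 to 7299 CPM in WT cTECs. The KO library was below every WT library for 33 members, which held for 32.9% of all genes tested. It was above every WT library for 0 members, against 29.0% of all genes, and between them for Irf8, Irf9, Eif2ak2 and Igtp. In the same library all 6 tuft, 6 of 8 mature mTEC and 2 of 5 immature mTEC markers were lower. So were 4 of 12 dendritic cell and macrophage, 1 of 5 B cell and 1 of 7 thymocyte markers. Higher were 2 of 4 epithelial and 2 of 5 fibroblast markers. The values are given above, and the part of these markers in this result was not tested. In RNA from many cells, fewer cells of a type and less RNA per cell cannot be told apart.

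**Figure D1:**
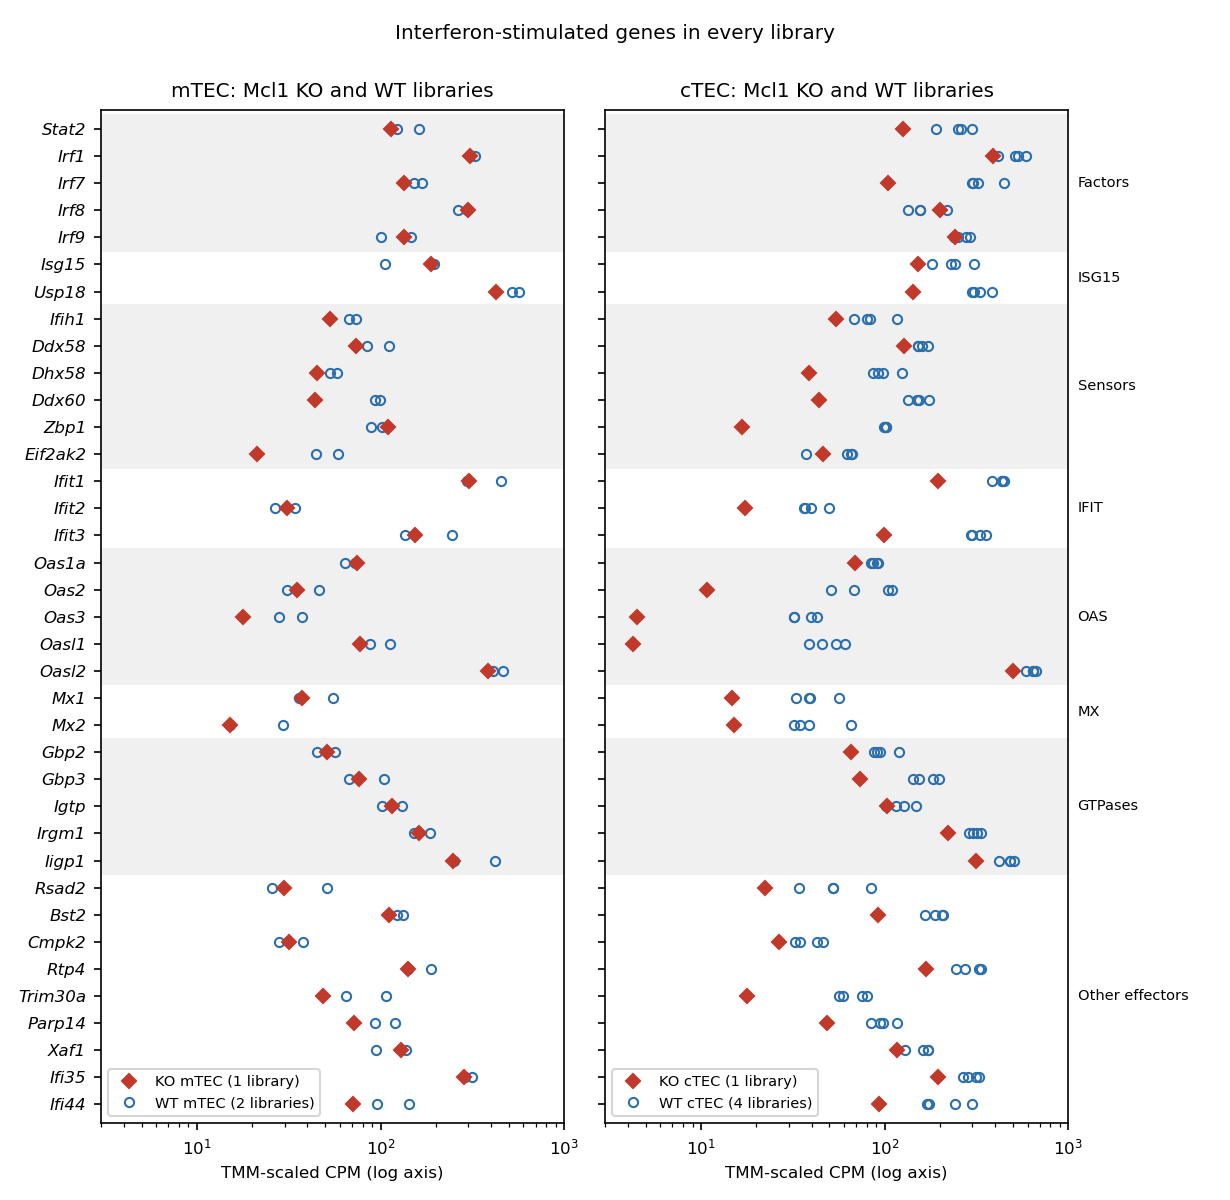
TMM-scaled CPM (log axis) of the 37 members in every library, with mTECs on the left and cTECs on the right; red diamonds are the KO library of each population and blue circles are WT libraries. In cTECs the diamond lies left of all 4 circles for 33 members, and in mTECs it lies left of both circles for 19.

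The 4 deepest falls were those of Zbp1 and of 3 genes of the 2′-5′-oligoadenylate synthetase (OAS) family. OAS proteins make a short nucleotide messenger in response to double-stranded RNA that activates RNase L. Oasl1, an OAS-like protein known in mice to restrain translation of Irf7, had 4.24 CPM in KO cTECs, against 60.7, 54.6, 38.9 and 45.4 CPM in WT cTEC libraries 1 to 4. Oas3 had 4.5 CPM in KO cTECs, against 32.2, 39.6, 32.2 and 42.8 CPM in WT cTECs. Oas2 had 10.7 CPM in KO cTECs, against 51.0, 110.1, 68.2 and 105 CPM in WT cTECs. For each of these 3 genes the KO library lay well below the lowest WT library, although Oas2 itself varied in WT cTECs by more than a factor of 2. Their log2 fold changes were -3.55 ± 0.37 (SE) for Oasl1 (adjusted p = 0.000582), -3.03 ± 0.36 for Oas3 (adjusted p = 0.00102) and -2.96 ± 0.53 for Oas2 (adjusted p = 0.00677). The other two OAS genes did not pass. Oasl2 had 497 CPM in KO cTECs, against 641, 639, 668 and 586 CPM in WT cTECs, and its log2 fold change was -0.35 ± 0.19 (adjusted p = 0.25). Oas1a had 69.2 CPM in KO cTECs, against 91.8, 84.6, 90.9 and 87.0 CPM in WT cTECs, and -0.36 ± 0.19 (adjusted p = 0.233). Both KO values were nevertheless below all 4 WT values. The 5 genes lie in a pair of clusters on chromosome 5 (GRCm38.p6): Oasl2 and Oasl1 between 114896926 and 114937911, and Oas2, Oas3 and Oas1a between 120730333 and 120907544. Reads of Oas1a may be shared with its near-identical copies.

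Among the sensors, 3 of 6 fell, against 12.4% of all genes. Zbp1, which binds left-handed nucleic acids and can start inflammatory cell death, had 16.6 CPM in KO cTECs, against 101, 102, 99.3 and 101 CPM in WT cTECs. Its WT values were the closest to each other of any member (coefficient of variation 1.13%), and its log2 fold change was -2.60 ± 0.22 (adjusted p = 0.00024). Ddx60, a helicase linked to RNA sensing, had 43.8 CPM in KO cTECs, against 134, 151, 153 and 174 CPM in WT cTECs (-1.80 ± 0.23, adjusted p = 0.00145). Dhx58, which encodes the regulator LGP2, had 38.6 CPM in KO cTECs, against 86.0, 92.5, 97.7 and 124 CPM in WT cTECs (-1.37 ± 0.26, adjusted p = 0.00913). The KO value was below all 4 WT values for each of these genes. Ddx58, the RNA sensor RIG-I, had 128 CPM in KO cTECs, against 160.0, 153, 171 and 152 CPM in WT cTECs, and did not pass (-0.32 ± 0.21, adjusted p = 0.339). Ifih1, the RNA sensor MDA5, was -0.67 ± 0.30 and did not pass either. Eif2ak2, the RNA-dependent kinase PKR, was -0.34 ± 0.34, with the KO value among the WT values.

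The transcription factors of the response differed among themselves. Irf7, which drives expression of type I interferon genes, had 105 CPM in KO cTECs, against 302, 444, 298 and 324 CPM in WT cTECs (-1.71 ± 0.29, adjusted p = 0.00517). Stat2 had 125 CPM in KO cTECs, against 191, 262, 251 and 301 CPM in WT cTECs (-1.0 ± 0.29, adjusted p = 0.0484). Irf9, its partner in the ISRE-binding complex, had 242 CPM in KO cTECs, against 240.0, 251, 293 and 276 CPM in WT cTECs, and did not pass (-0.13 ± 0.24, adjusted p = 0.737). Irf7 lay at 30.5% of its WT mean while Irf9 lay among its WT values. Irf1, a factor induced by interferon gamma, had 391 CPM in KO cTECs, against 413, 589, 515 and 532 CPM in WT cTECs (-0.39 ± 0.23, adjusted p = 0.282). Irf8, best known from myeloid and B cells, was 0.26 ± 0.26 (adjusted p = 0.524), and its sign turned to -0.22 against WT cTEC 1 alone.

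Of the ISG15 pair, the protease fell and the modifier did not pass. Usp18, the protease that removes ISG15 from proteins and dampens type I interferon signalling, had 143 CPM in KO cTECs, against 383, 307, 329.7 and 299 CPM in WT cTECs (-1.20 ± 0.23, adjusted p = 0.00853). Isg15, the modifier itself, had 152 CPM in KO cTECs, against 180.0, 241, 231 and 308 CPM in WT cTECs, and did not pass (-0.66 ± 0.38, adjusted p = 0.275). Isg15 varied more between WT cTEC libraries than Usp18 did.

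All 3 IFIT genes, whose proteins bind viral RNA, fell, against 12.4% of all genes. Ifit3 had 99.1 CPM in KO cTECs, against 354, 297, 298 and 329 CPM in WT cTECs (-1.69 ± 0.33, adjusted p = 0.0107). Ifit1 had 196 CPM in KO cTECs, against 438, 436, 385 and 448 CPM in WT cTECs (-1.12 ± 0.27, adjusted p = 0.024). Ifit2 was lower by -1.22 ± 0.29 (adjusted p = 0.0245). The KO value was below all 4 WT values for each. The 3 genes lie together on chromosome 19 between 34550550 and 34650009, and Ifit3 has a near-identical neighbour with which reads may be shared.

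Of the 2 MX genes, dynamin-like GTPases that restrict viruses, 1 passed as lower, against 12.4% of all genes. Mx1 had 14.8 CPM in KO cTECs, against 39.5, 32.9, 38.7 and 56.3 CPM in WT cTECs (-1.50 ± 0.39, adjusted p = 0.0311). Mx2 had 15.1 CPM in KO cTECs, against 32.0, 34.8, 38.8 and 66.0 CPM in WT cTECs (-1.51 ± 0.53, adjusted p = 0.0857). Both KO values were below all WT values, and the SE of Mx2 was the wider. Of the 5 GTPases that act on vacuoles of intracellular microbes, 1 fell, against 12.4% of all genes. Gbp3 had 73.9 CPM in KO cTECs, against 199, 143, 153 and 183 CPM in WT cTECs (-1.20 ± 0.31, adjusted p = 0.0317). Iigp1 had 313 CPM in KO cTECs, against 484, 417, 508 and 481 CPM in WT cTECs (-0.59 ± 0.29, adjusted p = 0.192), and near-identical copies may share its reads. Gbp2, Irgm1 and Igtp were -0.58 ± 0.25, -0.50 ± 0.20 and -0.27 ± 0.26, none past the threshold.

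Of the 9 other effectors 3 fell, against 12.4% of all genes. Trim30a, a TRIM protein whose family holds near-identical copies, had 17.9 CPM in KO cTECs, against 80.5, 59.0, 75.4 and 56.4 CPM in WT cTECs (-1.92 ± 0.37, adjusted p = 0.00913). Bst2, tetherin, which holds budding virus at the cell surface, had 92.4 CPM in KO cTECs, against 166, 188, 209 and 206 CPM in WT cTECs (-1.06 ± 0.21, adjusted p = 0.012). Parp14, an ADP-ribosyltransferase, was lower by -1.02 ± 0.26 (adjusted p = 0.0288). The KO value was below all 4 WT values for all 3 genes. Ifi35 had 194 CPM in KO cTECs, against 325, 267, 314 and 283 CPM in WT cTECs (-0.62 ± 0.20, adjusted p = 0.0716). Rsad2 (viperin), Cmpk2, its neighbour on chromosome 12, Rtp4, Xaf1 and Ifi44 had log2 fold changes between -1.32 for Rsad2 and -0.43 for Xaf1, and none passed.

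Of the 17 calls 12 were kept when any single WT library was left out of the fit. Gbp3 (adjusted p = 0.0522), Ifit2 (0.0503) and Mx1 (0.0541) lost theirs without WT cTEC 3, Parp14 without WT cTEC 2 (0.0529) or 3 (0.0558), and Stat2 without WT cTEC 2 (0.0872), 3 (0.0889) or 4 (0.0677) or without WT mTEC 1 (0.0681) or 2 (0.0665). With WT cTEC libraries 1 and 4 alone as the comparison, 9 members were called lower. Of all genes 1605 of 17993 were then lower, against 2252 of 18163 in the main fit.

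**Figure D2:**
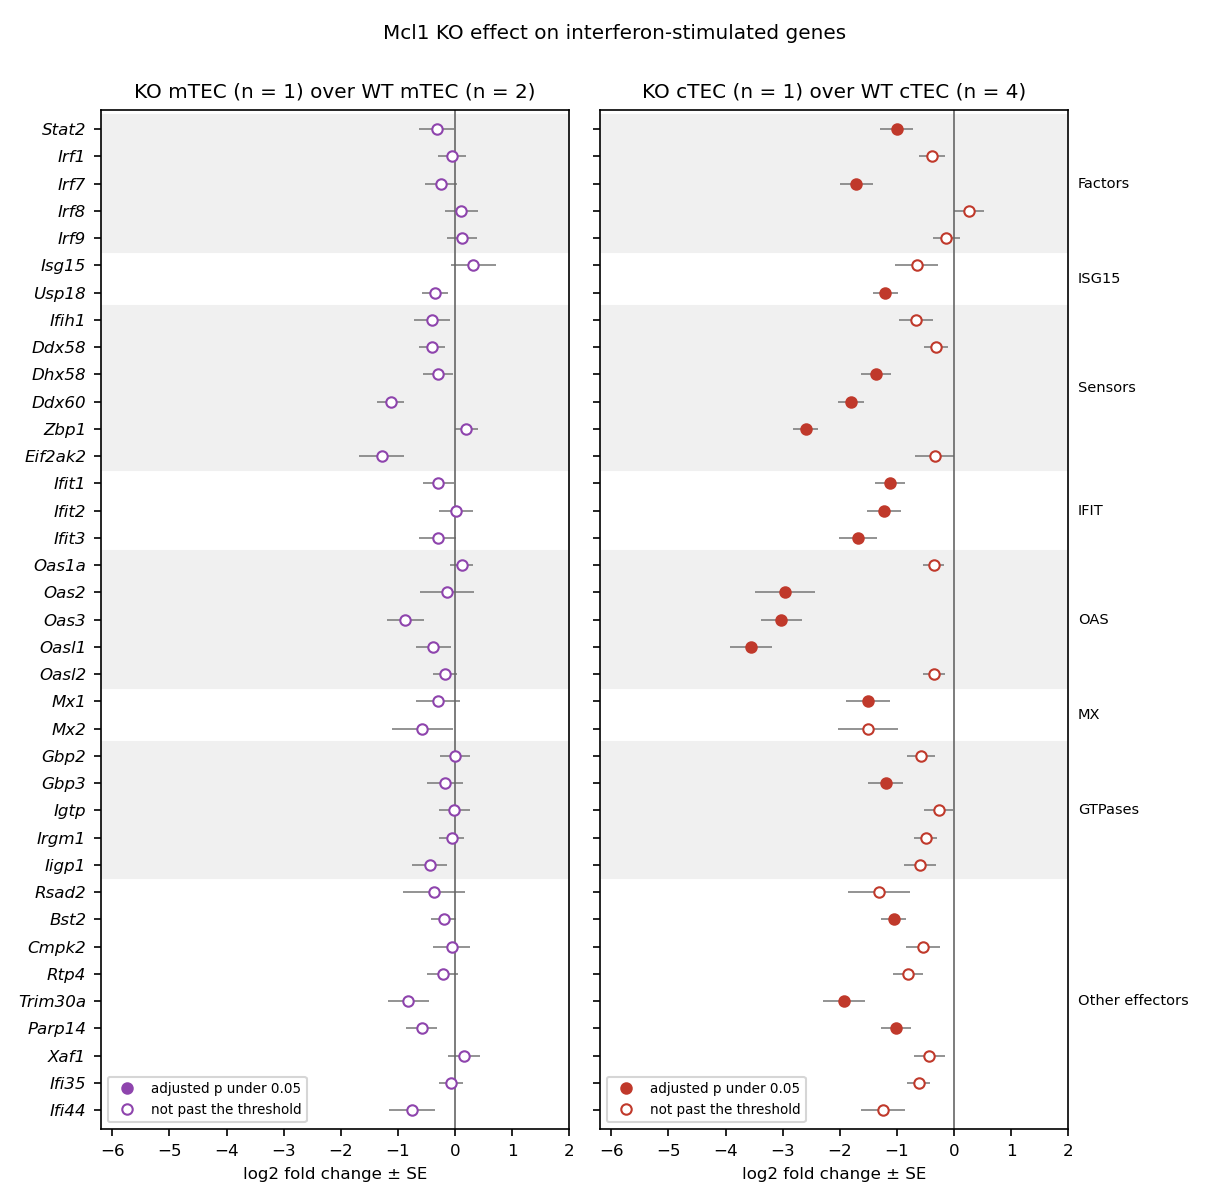
Log2 fold change ± SE of the KO library over WT libraries for the 37 members, with mTECs on the left and cTECs on the right; filled points passed an adjusted p under 0.05 and open points did not. In cTECs 17 points are filled, all below 0, and in mTECs none is.

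In KO mTECs no interferon-stimulated gene passed the threshold. By the edgeR test 0 of 37 members were called higher and 0 lower, as were 0% of all genes tested in either direction. At an unadjusted p under 0.05 there were 3 members and 1502 of all genes. DESeq2 called 1 member lower (Ddx60, adjusted p = 0.00368), among 43 of all genes, and limma-voom called 0 members. The median log2 fold change of the members was -0.25, against -0.03 over all genes. The KO library was below both WT libraries for 19 members (41.7% of all genes) and above both for Irf8, Zbp1 and Oas1a (38.6% of all genes).

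The 3 members with an unadjusted p under 0.05 were Ddx60, Eif2ak2 and Oas3, all lower. Ddx60 had 43.9 CPM in KO mTECs, against 98.8 and 93.1 CPM in WT mTECs (-1.13 ± 0.23, adjusted p = 0.292). Eif2ak2 had 21.1 CPM in KO mTECs, against 58.5 and 44.6 CPM in WT mTECs (-1.28 ± 0.39, adjusted p = 0.477). Oas3 had 17.8 CPM in KO mTECs, against 37.1 and 27.9 CPM in WT mTECs (-0.87 ± 0.32, adjusted p = 0.548). For each the KO value was below both WT values. Isg15 had 189 CPM in KO mTECs, against 197 and 106 CPM in WT mTECs, which differed from each other by more than the KO library did from WT mTEC 1. Its log2 fold change was 0.32 ± 0.39, and -0.063 without WT mTEC 2.

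The test of the difference between the KO effects, mTEC minus cTEC, separated 4 members. The 4 members were called higher, meaning a less negative or, for Zbp1, a positive effect in mTECs. None were called lower, and of all genes 6.16% were higher and 0.644% lower. The targeted gene differed in the same test, Mcl1 by 3.96 ± 0.50 (adjusted p = 0.00277). In KO mTECs Mcl1 kept 49.8% of its WT mean and was not called lower. Zbp1 had 109.5 CPM in KO mTECs against 102 and 88.8 CPM in WT mTECs, and its effect differed from that in cTECs by 2.80 ± 0.28 (adjusted p = 0.00112). Oasl1 had 77.1 CPM in KO mTECs against 112 and 88.0 CPM in WT mTECs, a difference of 3.17 ± 0.45 (adjusted p = 0.00446). Oas2 had 34.9 CPM in KO mTECs against 46.1 and 31.1 CPM in WT mTECs, a difference of 2.82 ± 0.66 (adjusted p = 0.0409). For Zbp1 the KO mTEC value was above both WT mTEC values, for Oas2 between them, and for Oasl1 below both. The difference for Oas3 was 2.16 ± 0.44 (adjusted p = 0.0236), its effect being -0.87 in mTECs and -3.03 in cTECs. Irf7 just missed (1.46 ± 0.38, adjusted p = 0.0608). Over the 37 members the median difference was 0.68, against 0.09 over all genes. The calls of Zbp1 and Oasl1 were kept without any single WT library. That of Oas2 was lost without WT cTEC 2 (adjusted p = 0.0682), 3 (0.0586) or 4 (0.0624) or WT mTEC 1 (0.072) or 2 (0.128), and that of Oas3 without WT cTEC 2 (0.0502) or WT mTEC 1 (0.0536) or 2 (0.0909). The marker levels of the KO cTEC library and the level of Mcl1 move with this difference too, and their part was not tested.

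**Figure D3:**
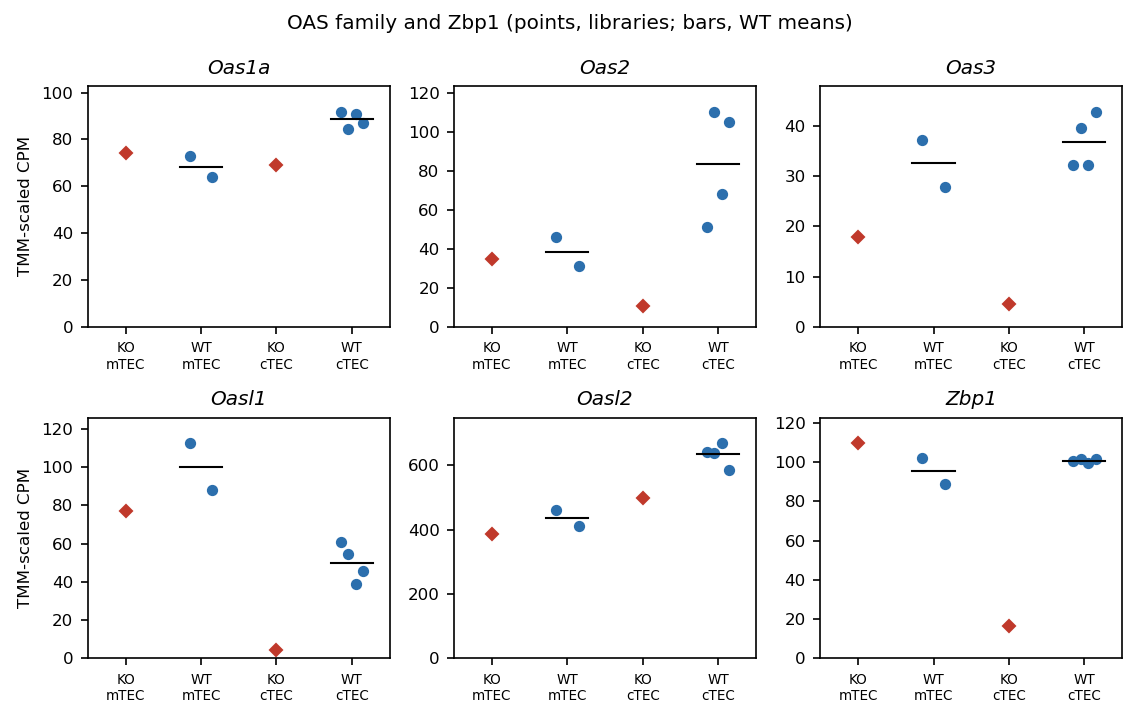
TMM-scaled CPM of the 5 OAS genes and Zbp1 by group, each axis from 0; diamonds are the single KO libraries, circles are WT libraries, and bars are the means of 2 WT mTEC or 4 WT cTEC libraries. Oas2, Oas3, Oasl1 and Zbp1 sit near the axis in KO cTECs, whereas Oas1a and Oasl2 do not.

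Between the WT populations, most members that differed were lower in mTECs. Of 37 members 16 were lower and 3 higher in WT mTECs than in WT cTECs, against 13.9% lower and 13.2% higher of all genes tested, with a median log2 fold change of -0.54 against 0.06 over all genes. This comparison shares its WT libraries with the KO comparisons, so their values are not independent. WT mTECs lay below all WT cTECs for 19 members (24.7% of all genes) and above them for 3 (30.3% of all genes). All 19 calls were lost without at least 1 library: the count called lower was 4 without WT mTEC 1, 0 without WT mTEC 2, 9 without WT cTEC 2 and 8 without WT cTEC 3, and the count called higher was 0 without either mTEC library. With the replicate number as a block, 5 were lower and 0 higher. The number of all genes called fell in these fits too. It was 2519 lower in the main fit, 1794 without WT cTEC 2, 1647 without WT cTEC 3 and 1088 with the block. Cell type markers moved here as well. In WT mTECs 6 of 8 mature mTEC markers, 4 of the 12 myeloid and dendritic markers and 1 of 5 B cell markers were higher. The 12 summed to 839 and 1098 CPM in WT mTECs, against 199 to 323 CPM in WT cTECs. Lyz2 alone gave 741 and 995 CPM of this in WT mTECs and 121 to 223 CPM in WT cTECs. Of 5 immature mTEC markers 4 were lower and 1 higher. Lower too were 4 of 6 tuft, 3 of 4 epithelial and 2 of 5 fibroblast markers. The part of these markers was not tested.

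Most of the factors were lower in WT mTECs and the fifth was higher. Irf9 had 147 and 100.4 CPM in WT mTECs, against 240.0, 251, 293 and 276 CPM in WT cTECs (-1.10 ± 0.20, adjusted p = 0.00679). Irf7 had 168 and 153 CPM in WT mTECs, against 302, 444, 298 and 324 CPM in WT cTECs (-1.09 ± 0.21, adjusted p = 0.00818). Stat2 (-0.82 ± 0.22, adjusted p = 0.0272) and Irf1 (-0.70 ± 0.18, adjusted p = 0.0238) were lower too, so that 4 of the 5 factors were lower and none of them overlapped between populations. Irf8 had 263 and 294 CPM in WT mTECs, against 218, 156, 156 and 134 CPM in WT cTECs (0.75 ± 0.20, adjusted p = 0.0283).

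GTPases, sensors and effectors were among the lower genes too. Irgm1, which regulates the other immunity-related GTPases, had 185 and 152 CPM in WT mTECs, against 289, 304, 336 and 318 CPM in WT cTECs (-0.89 ± 0.16, adjusted p = 0.00659). Gbp3 had 105 and 67.5 CPM in WT mTECs, against 199, 143, 153 and 183 CPM in WT cTECs (-0.98 ± 0.23, adjusted p = 0.0175). Gbp2, encoded near Gbp3 on chromosome 3, had 56.4 and 45.2 CPM in WT mTECs, against 119, 87.1, 94.6 and 91.4 CPM in WT cTECs (-0.95 ± 0.19, adjusted p = 0.0106). None of these 3 GTPases overlapped between the populations. Oas2 had 46.1 and 31.1 CPM in WT mTECs, against 51.0, 110.1, 68.2 and 105 CPM in WT cTECs (-1.12 ± 0.34, adjusted p = 0.0435). Dhx58 had 57.7 and 53.2 CPM in WT mTECs, against 86.0, 92.5, 97.7 and 124 CPM in WT cTECs (-0.85 ± 0.19, adjusted p = 0.0147). Ifi44 had 142 and 96.1 CPM in WT mTECs, against 300.4, 175, 241 and 169 CPM in WT cTECs (-0.89 ± 0.28, adjusted p = 0.0481). For Dhx58 and Ifi44, too, the populations did not overlap. The remaining lower members were the sensors Ddx58 (-0.71) and Ddx60 (-0.67), and Rtp4 (-0.85), Ifit3 (-0.75), Bst2 (-0.60) and Oasl2 (-0.54). Ifit3 was near the threshold (adjusted p = 0.0479).

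Beside Irf8, the members higher in mTECs were Oasl1 and Usp18. Oasl1 had 112 and 88.0 CPM in WT mTECs, against 60.7, 54.6, 38.9 and 45.4 CPM in WT cTECs (1.01 ± 0.21, adjusted p = 0.0113). Usp18 had 569 and 517 CPM in WT mTECs, against 383, 307, 329.7 and 299 CPM in WT cTECs (0.72 ± 0.16, adjusted p = 0.0133). Neither gene overlapped between the populations. Isg15 did overlap, at 197 and 106 CPM in WT mTECs and 180.0, 241, 231 and 308 CPM in WT cTECs (-0.67 ± 0.29, adjusted p = 0.121).

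**Figure D4:**
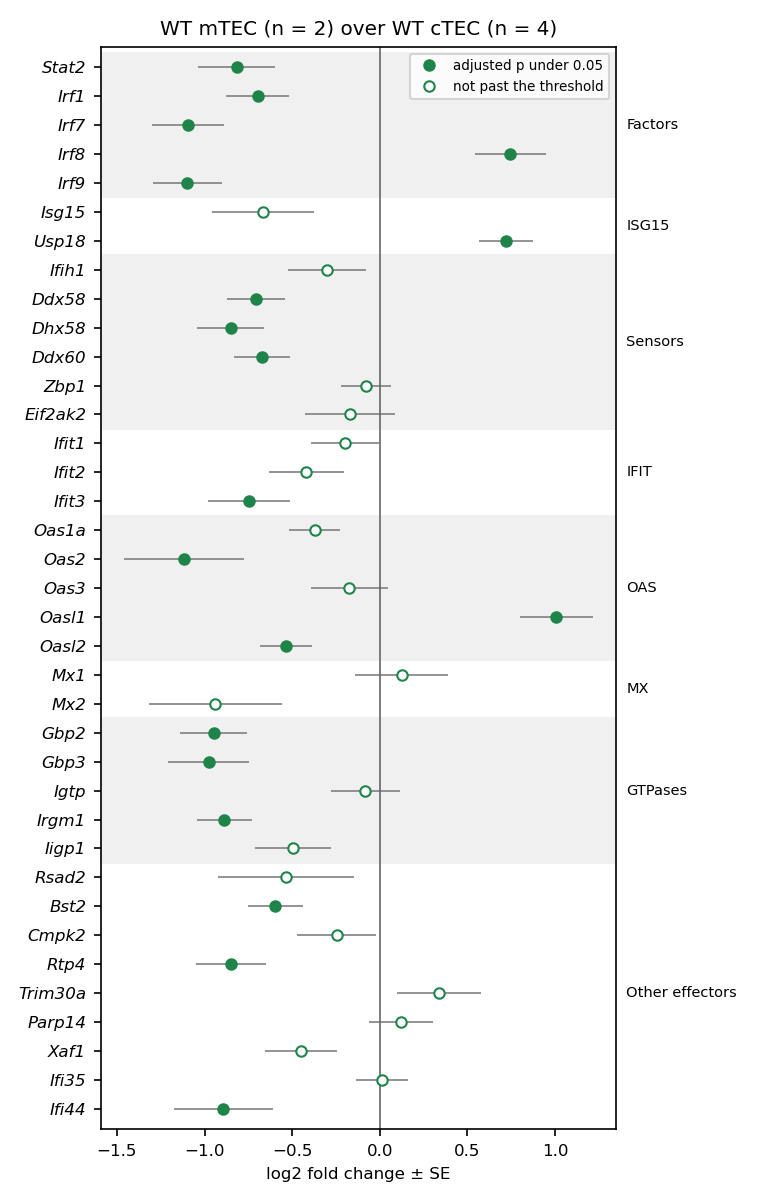
Log2 fold change ± SE of WT mTECs (n = 2) over WT cTECs (n = 4) for the 37 members; filled points passed an adjusted p under 0.05. The 16 filled points below 0 include 4 of the 5 factors, and the 3 above 0 are Irf8, Usp18 and Oasl1.

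Levels can be ranked between genes when counts are also divided by gene length, as reads per kilobase of gene length (RPKM, which is CPM over length). In KO cTECs Isg15 stood highest at 201 RPKM, and Oas3 lowest at 0.954 RPKM. In WT cTECs Isg15 was at 317 ± 69.7 RPKM, followed by Bst2 at 249.9 ± 25.5, Ifi35 at 219 ± 19.8 and Oasl2 at 202 ± 10.9 RPKM (SD, n = 4). In KO mTECs Isg15 was at 249.5, Usp18 at 239.7 and Ifi35 at 209.5 RPKM. In WT mTECs Usp18 led at 307 ± 20.9 RPKM, followed by Ifi35 at 220.5 ± 13.7, Isg15 at 199.97 ± 85.0 and Bst2 at 165 ± 9.04 RPKM (SD, n = 2). In the WT orders the ranges of mean ± SD of neighbours overlapped, apart from those of Usp18 and Ifi35 in WT mTECs. Across the 4 WT cTEC libraries the coefficient of variation of the members' CPM had a median of 14.6%, and it was widest for Rsad2 at 37.6%.

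The interferon genes themselves were scarce. Of 20 ligand genes 19 had a count of 0 in KO cTECs, where a count of 0 allows up to 0.193 CPM, and 14 to 19 of 20 had none in the WT cTEC libraries. In KO mTECs 15 and in the WT mTEC libraries 10 and 7 were at 0. The interferon lambda genes were the most abundant. Ifnl2 had 7.23 CPM in KO mTECs and 9.30 and 8.67 CPM in WT mTECs, against 0 CPM in KO cTECs and 1.78, 0.516, 0.869 and 0 CPM in WT cTECs. Ifnl3, a near-identical copy with which reads may be shared, had 4.79 CPM in KO mTECs and 7.54 and 6.02 CPM in WT mTECs, against 0 CPM in KO cTECs and 3.28, 0.590, 0.163 and 0 CPM in WT cTECs. Ifng had 2.59 and 3.28 CPM in WT mTECs, against 0.428, 0, 0.326 and 0 CPM in WT cTECs. In counts, Ifng had 11 in KO mTECs, the library of lowest depth, against 47 and 62 in WT mTECs, and 2 in KO cTECs. These genes were present in mTECs and near or at 0 in most cTEC libraries. In WT mTECs over WT cTECs, Ifnl2 was higher by 3.51 ± 1.01 (adjusted p = 0.0359) and Ifng by 3.91 ± 1.23 (adjusted p = 0.0476). Ifnb1, the interferon beta gene, had 1.65 and 2.43 CPM (30 and 46 counts) in WT mTECs and 0 counts in all other libraries, which was at least 43.7-fold higher than a floor of 3 counts over the WT cTEC group (adjusted p = 0.0164). Its 0 in KO mTECs allows up to 0.271 CPM and gave no call (adjusted p = 0.578). Ifnb1 and Ifng passed the filter on low counts only through the WT mTEC libraries, where they are high. Their calls as higher in WT mTECs are therefore not independent of that filter.

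**Figure D5:**
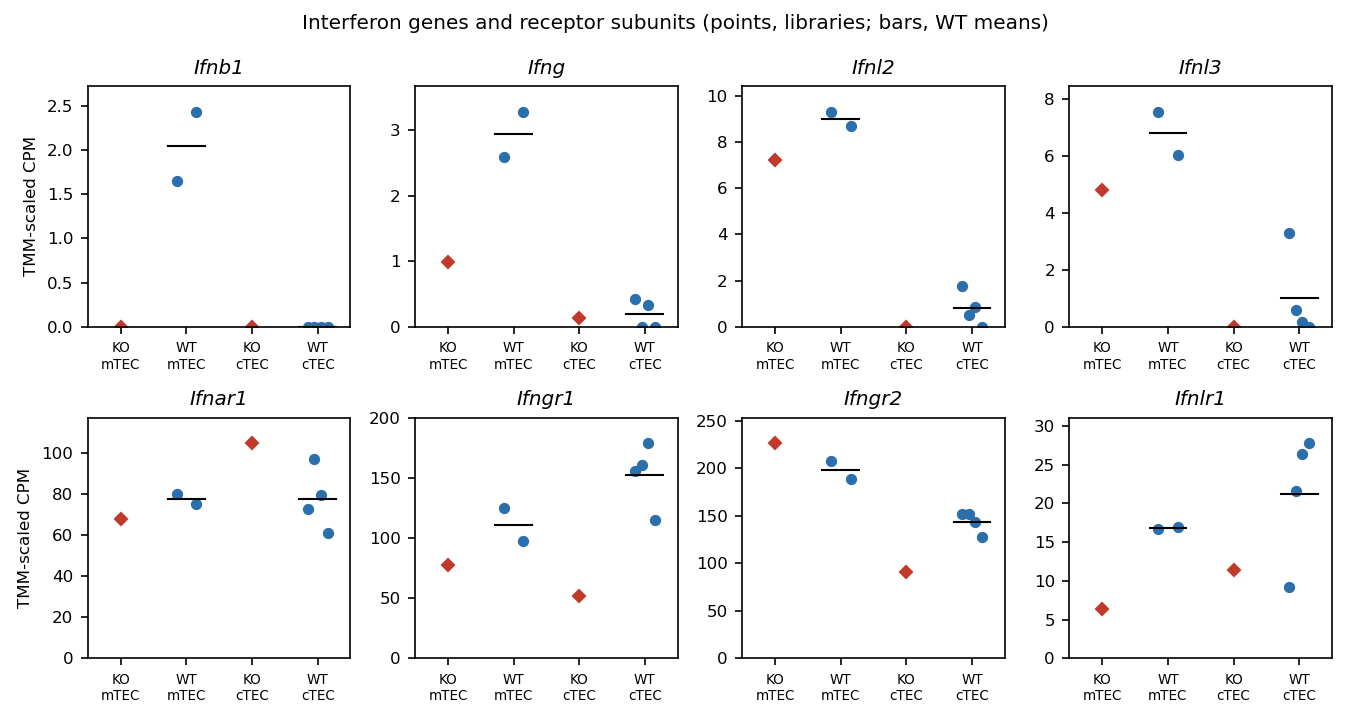
TMM-scaled CPM of 4 interferon genes and 4 receptor subunits by group, each axis from 0; diamonds are the single KO libraries, circles are WT libraries, and bars are means of 2 WT mTEC or 4 WT cTEC libraries. The interferon genes are seen mainly in mTECs, and Ifngr1 lies lower in KO cTECs than in WT cTECs.

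Receptors for all 3 interferon types were present in every group. Ifngr1, the ligand-binding chain of the interferon gamma receptor, had 52.3 CPM in KO cTECs, against 156, 161, 179 and 116 CPM in WT cTECs (-1.55 ± 0.30, adjusted p = 0.00935). It was the 1 of 6 receptor genes that passed the threshold in KO cTECs, where 12.4% of all genes were called lower and 5.1% higher. Ifnar1, a chain of the type I receptor, had 105 CPM in KO cTECs, against 72.8, 97.3, 79.8 and 61.1 CPM in WT cTECs (0.43 ± 0.25, adjusted p = 0.269), and Ifnar2 was -0.46 ± 0.25 (adjusted p = 0.247). Ifngr2 and Il10rb were -0.66 ± 0.20 and -0.06 ± 0.20. Ifnlr1, the specific chain of the interferon lambda receptor, had 11.4 CPM in KO cTECs, against 9.20, 21.5, 26.4 and 27.8 CPM in WT cTECs (-0.90 ± 0.56, adjusted p = 0.307). The type I receptor chains thus did not pass, and Ifnar1 in the KO library was above every WT library. In WT mTECs over WT cTECs, Ifngr2 was higher by 0.47 ± 0.14 (adjusted p = 0.0452).

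Of the 3 Janus kinases, Jak2 was lower in KO cTECs (-0.72 ± 0.21, adjusted p = 0.0499) and Jak1 lower in WT mTECs than in WT cTECs (-0.52 ± 0.14, adjusted p = 0.0286). Of all genes 12.4% and 13.9% were lower in these comparisons.

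Of 6 negative regulators 3 fell in KO cTECs, against 12.4% of all genes. Socs1, an inhibitor of Janus kinases that is itself induced by interferon, had 25.3 CPM in KO cTECs, against 89.5, 90.1, 73.4 and 77.6 CPM in WT cTECs (-1.71 ± 0.23, adjusted p = 0.00175). Ptpn6, the phosphatase SHP-1, had 60.03 CPM in KO cTECs, against 187, 212, 136 and 224 CPM in WT cTECs (-1.66 ± 0.31, adjusted p = 0.00789). Irf2, a repressor at ISRE sites, was lower by -0.80 ± 0.23 (adjusted p = 0.046). Their KO values were below all WT cTEC values. In KO mTECs Socs1 had 130.2 CPM, against 134 and 136 CPM in WT mTECs, and its KO effect differed between mTECs and cTECs by 1.66 ± 0.30 (adjusted p = 0.0139), as did that of Ptpn6 by 1.92 ± 0.41 (adjusted p = 0.0283). In WT mTECs over WT cTECs, Socs1 (0.71 ± 0.15) and Ptpn2 (0.49 ± 0.15) were higher and Socs3 was lower (-3.94 ± 0.86, adjusted p = 0.0145). Socs3 stood at 34.6 and 33.1 CPM in WT mTECs and 82.0, 848, 524 and 625 CPM in WT cTECs, where library 1 was far below the other 3.

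Of 14 further sensors and adaptors 12 passed the filter on low counts, and 3 fell in KO cTECs, against 12.4% of all genes. Sting1, the adaptor of cytosolic DNA sensing, had 16.1 CPM in KO cTECs, against 94.3, 79.7, 77.2 and 68.1 CPM in WT cTECs (-2.31 ± 0.27, adjusted p = 0.000992). Irf5, a factor downstream of Toll-like receptors, had 3.28 CPM in KO cTECs, against 36.0, 29.6, 15.2 and 26.4 CPM in WT cTECs (-3.02 ± 0.51, adjusted p = 0.00522). Tlr3, a receptor for double-stranded RNA, was lower by -1.55 ± 0.40 (adjusted p = 0.0313). In KO mTECs Sting1 had 159 CPM, against 171 and 204 CPM in WT mTECs, and its KO effect differed between populations by 2.06 ± 0.35 (adjusted p = 0.00976). Irf5 had 104 CPM in KO mTECs, against 78.2 and 74.2 CPM in WT mTECs, a difference of effects of 3.47 ± 0.63 (adjusted p = 0.0142). In WT mTECs over WT cTECs, the DNA sensor gene Cgas (2.31 ± 0.56), Irf5 (1.51 ± 0.29), Sting1 (1.23 ± 0.17), the kinase gene Ikbke (0.75 ± 0.18) and Trim25 (0.58 ± 0.17), a ubiquitin ligase of the RIG-I pathway, were higher. Myd88, the adaptor of most Toll-like receptors, was lower (-1.0 ± 0.23). Some of these pathway calls were lost without at least 1 WT library. They were those of Irf2, Jak2 and Tlr3 in KO cTECs and of Socs1, Ptpn6 and Irf5 for the difference. So were all calls between the WT populations but those of Sting1 and Ifnb1. Without WT mTEC 1 or without WT mTEC 2, Ifnb1 failed the filter on low counts, so its call was not checked in those fits.

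A second list held 42 interferon-induced genes that are not among the 37. Like the members, they were chosen with earlier results of these data known, so counts over them are not an independent check. In KO cTECs 19 were lower and 0 higher, against 12.4% and 5.1% of all genes tested (median log2 fold change -0.84). In KO mTECs 0 were called, as was 0% of all genes (-0.12). In WT mTECs 16 were lower and 3 higher than in WT cTECs, against 13.9% and 13.2% of all genes (-0.48). For the difference 10 had a higher KO effect in mTECs than in cTECs and 0 a lower one, against 6.16% and 0.644% of all genes (0.73). Ifi204, a DNA sensor of the HIN-200 family, had 1.99 CPM in KO cTECs, against 64.8, 39.8, 44.4 and 44.4 CPM in WT cTECs (-4.59 ± 0.43, adjusted p = 0.000368). Epsti1 (-3.56 ± 0.59, adjusted p = 0.005) and Phf11b (-3.38 ± 0.92, adjusted p = 0.0386) had the next deepest falls. The call of Phf11b was lost without WT cTEC 2 (0.0586) or 3 (0.0728) or WT mTEC 1 (0.0753) or 2 (0.0779). Between the WT populations the deepest falls in mTECs were those of Tor3a (-1.49), Lgals3bp (-1.35) and Isg20 (-1.33), and Gbp4 (1.51), Epsti1 (1.21) and Samhd1 (0.60) were higher. Of these 6 calls 0 were kept in every fit with 1 library left out. Of the 33 among the 42 genes with a promoter window, 14 (42.4%) held the ISRE core.

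The promoter letters can be set beside the KO effect in cTECs, as a description. Of 17 members with an ISRE core in the window 8 were lower in KO cTECs (median log2 fold change -1.0), and of 11 members with a window and no core 3 were (median -0.55). Of the 5 members with overlapping tandem cores 2 were lower, Gbp3 (-1.20) and Bst2 (-1.06), while Isg15 (-0.66), Irgm1 (-0.50) and Oas1a (-0.36) did not pass. The deepest fall, that of Oasl1, was in a gene whose window held no core. The 3 lower members without a core were Oasl1, Irf7 and Ifit2. The start sites of their windows lay inside the gene, as for some members with a core, such as Ifit3. Less of the sequence before these genes was therefore searched, and a core further out could have been missed.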

How the data were processed

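The authors counted paired-end reads of poly(A) RNA libraries per Entrez gene with featureCounts against mouse build mm10, per the submitters' processing notes. The deposited per-sample files hold raw whole-number counts, not normalized by the authors. The aligner, software versions and strand setting were not given in the sources used here. The 8 columns of a deposited series-wide table match no sample label, and it was left aside.

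Symbols and positions came from RefSeq (GRCm38.p6), where 25275 of 27179 identifiers were found. The rest took 0.887 to 1.68% of the counts. The filter asked for 1 CPM or more in 2 or more libraries and kept 18163 genes, among them all 37 members. Counts were scaled by TMM and tested two-sided with edgeR 4.0.16 (robust quasi-likelihood) in R 4.3.3. The fit had 1 mean per group over all 8 libraries, with Benjamini-Hochberg adjustment over all genes tested. Each KO group has 1 library, assumed to vary like the WT libraries. The SE is the size of the log2 fold change divided by the square root of F. The fit was tested on simulated data. Alternatives used DESeq2 1.42.0, limma-voom (limma 3.58.1), other scaling and filters, and fewer libraries. RPKM divides CPM by the gene length in the count files.

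The members and gene lists were chosen with earlier results of these data known. All 37 members may be named, with values per library for up to 8 called members per direction and comparison and for the member of highest mean CPM in each role group. Pathway genes are named where called, with receptors and the highest interferon genes. From the second list up to 3 per direction are named. A withheld pathway gene is not reported here. Irf8, Irf9, Ifih1 and other uncalled members are named as members. Floors of 3 counts cover counting error only, since reads carry no molecular identifiers. Libraries of a group differed by more than sampling noise. Both WT groups have replicates numbered 1 and 2, but deviations of same-numbered libraries correlated at -0.146 and -0.0194 across genes, so no pairing was assumed.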

Additional observations from a re-analysis of the deposited data

Results flagged for a closer look

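The KO effect differed between mTECs and cTECs for 4 members in the test of the difference itself (edgeR, over all genes): Zbp1 by 2.80 on the log2 scale (adjusted p = 0.00112), Oasl1 by 3.17 (0.00446), Oas3 by 2.16 (0.0236) and Oas2 by 2.82 (0.0409). It also differed for 4 genes of the surrounding pathway: Sting1 by 2.06 (adjusted p = 0.00976), Socs1 by 1.66 (0.0139), Irf5 by 3.47 (0.0142) and Ptpn6 by 1.92 (0.0283). The targeted gene Mcl1 itself differed by 3.96. In the same test 10.8% of the members were called higher, against 6.16% of all genes, and 0% were called lower, against 0.644%.

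In 2 of 66 member and pathway genes checked over the 4 WT cTEC libraries, 1 library lay far from the other 3. Both times it was WT cTEC 1, which had 37.4 CPM of Eif2ak2 and 26.1 CPM of Mavs, each the lowest of the group. Chance alone flags about 1 gene in 20.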

How the results depend on the processing

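In cTECs 17 members were called lower in KO, 12 to 19 when 1 library was left out, 22 with DESeq2, 15 with limma-voom and 9 against WT cTEC libraries 1 and 4 only. In KO mTECs 0 were lower, and 1 with DESeq2, among 43 of all genes. The fit without WT cTEC libraries 2 to 4 leaves 1 WT cTEC library, so its spread comes from the 2 WT mTEC libraries alone. In that fit the median log2 fold change in KO mTECs was -0.24 over the members and -0.017 over all genes. The difference of the effects had 4 higher members, 7 with DESeq2, 1 with limma-voom, 10 without WT cTEC libraries 2 to 4 (and 1 lower, against 0), 2 with WT cTEC libraries 1 and 4 only and 2 to 5 with 1 library left out. Between the WT populations 16 were lower and 3 higher in mTECs. With 1 library left out these were 0 to 16 and 0 to 3. They were 12 and 1 without WT cTEC libraries 2 to 4, 1 and 0 with WT cTEC libraries 1 and 4 only, and 5 and 0 with the replicate number as a block. The number of all genes called moved in the same fits, so a changed count is not particular to the members. For the difference, 1119 of all genes were higher in the main fit, 1795 with DESeq2 and 107 with limma-voom. Between the WT populations, 2519 of all genes were lower in mTECs in the main fit. This was 537 with WT cTEC libraries 1 and 4 only and 1088 with the block. The cause of these shifts was not tested.

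None of the 40 values of called members changed sign in any alternative, and 30 of the 108 uncalled values did in at least 1. Irf8 in KO cTECs was -0.22 without WT cTEC libraries 2 to 4. With 1 library left out, Oas2 in KO mTECs ran between -0.40 and 0.16, Isg15 in KO mTECs between -0.063 and 0.83, and Zbp1 between the WT populations from -0.18 to 0.026, the upper value of Oas2 being without WT mTEC 1 and the crossings of the other two without WT mTEC 2. With 1 library per KO group, a fold change of a single KO library has no replicate check of its own.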
